A study of Mus musculus with 6 samples.

Results

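The genes described here encode the nuclear subunits of the respiratory chain (complexes I to IV) and of the mitochondrial ATP synthase (complex V), measured as RNA in sorted mouse beta cells. Members were taken by symbol from the deposited expression table: Ndufa, Ndufb, Ndufc, Ndufs and Ndufv genes with a number, Ndufab1, Sdha to Sdhd, Uqcr genes, Cyc1, the Cox4 to Cox8 subunit genes and the Atp5 genes, each at 1 locus. A mean of at least 1 FPKM over the libraries was required, where FPKM counts sequenced fragments relative to transcript length and to all mapped fragments of that library. The rule matched 86 symbols and 80 passed the filter, of 11131 genes that passed it in the whole table and 23087 genes at 1 locus. Of these 80, 37 belong by name to complex I, 4 to complex II, 9 to complex III, 13 to complex IV and 17 to complex V. The 6 that did not pass were Ndufa4l2 of complex I and Cox4i2, Cox6b2, Cox7b2, Cox8b and Cox8c of complex IV.

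Complex I takes electrons from NADH and complex II takes them from succinate, complex III passes them to cytochrome c, and complex IV hands them to oxygen. Complexes I, III and IV pump protons across the inner mitochondrial membrane, and ATP synthase uses the gradient to make ATP. Beta cells of the pancreatic islet make insulin, and in them ATP made in this way from glucose closes potassium channels in the plasma membrane and so couples glucose to insulin release. The core subunits that the mitochondrial genome encodes are not analysed here.

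The study compared wild-type mice (WT) with mice in which a RIP-Cre transgene (Cre under the rat insulin promoter) had removed the floxed FoxO1 gene in beta cells (IKO). All mice were female, of a mixed 129J-C57BL/6 background and on standard chow, and their beta cells were sorted by flow cytometry from purified islets. The 6 groups were WT and IKO, each at 3 months of age and nulliparous, at 12 months and nulliparous, and at 12 months and multiparous after 3 pregnancies. The multiparous WT group also bears the label NGT and the multiparous IKO group the label DM. Those labels go with genotype among the multiparous groups and with parity within a genotype, so they cannot be told apart from either. Whether the WT mice carried Cre or the floxed allele, and how many animals went into a library, is not given in the labels.

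With 1 library in each group, ratios between single libraries carry no replicate error and were not tested. The deleted gene, Foxo1, was at 5.67, 7.62 and 8.93 FPKM in the WT libraries and at 0.410, 0.410 and 0.656 in the IKO libraries, in the order of stages above. The beta cell messages Ins1, Ins2 and Iapp were listed at 0 in all 6 libraries. The summed level of the 10 beta cell markers, which thus rests on 7 of them, lay between 1203 and 1592 FPKM. The lowest sum was that of the 12-month nulliparous WT library and the highest that of its IKO partner. The nulliparous WT library at 12 months differed from the rest in many of the genes below. It had the highest summed level of alpha cell markers (1062 against 274 to 736 FPKM elsewhere), delta cell markers (565 against 106 to 204), the PP cell marker Ppy (990 against 219 to 361) and acinar markers (73.96 against 3.24 to 25.9), and the lowest of immune markers (1.79 against 6.63 to 8.63). Its relative depth, read from the step size of low values, was 0.767 of that of the 3-month WT library, against 0.830 to 1.02 in the rest. Results are therefore given with and without this library, which is called the library apart. In bulk RNA, fewer cells of a type and less RNA per cell cannot be told apart.

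Respiratory chain genes were among the most abundant messages of the table. Their median level, averaged over the libraries, was 86.1 FPKM, at the 94.97th percentile of all tested genes, and 61 of the 80 members were in the top 10 percent. Mean levels reached 100 FPKM in 38 members and stayed under 10 FPKM in 4. By complex, the median member was at 74.1 FPKM in complex I, 84.3 in complex II, 77.7 in complex III, 119.9 in complex IV and 116.1 in complex V. In complex IV the median within a library was 211.3 FPKM in the library apart and 98.3 to 107.0 in the others. In complex V it was 116.3 in the library apart and 109.9 to 127.1 in the others, so complex V was the higher there. FPKM is per length, so these levels can be set beside each other, within the limits of transcript length and near-identical copies described below.

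In complex I the members with the highest means were Ndufa4 (286 to 346 FPKM) and the accessory subunit genes Ndufb9 (mean 211.7) and Ndufa2 (mean 210.4). Ndufa4 is now known to bind complex IV although its name places it here. With the library apart left out, the median was 159.7 FPKM for Ndufa2, below Ndufb9 (189.3), Ndufc2 (190.0) and Ndufa1 (217.5). The core subunit genes described here that carry the flavin or iron-sulfur clusters were lower. Ndufv1 stood at 71.1 FPKM, Ndufs7 at 65.2, Ndufv2 at 64.0, Ndufs8 at 57.1 and Ndufs1 at 39.3. Ndufs3, another core subunit gene, stood at 30.8. The lowest member that passed was Ndufs5, at a mean of 1.06 FPKM, and just under the limit lay Ndufa4l2, a relative of Ndufa4 known as a hypoxia-induced gene, at 0.792 FPKM. Among genes of a complex whose other subunits were mostly near or above 50 FPKM, the level of Ndufs5 stands apart. The 3-month pair (WT, then IKO) had 1.99 and 0.657 FPKM, the older nulliparous pair 0.00012 and 1.59, and the multiparous pair 1.41 and 0.690. WT lies above IKO in the first and last pair and below it in the other, and whether the deposited estimate of this gene failed or was split is not known, so all its values below are uncertain.

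Complex II had 4 members close to each other, which together form succinate dehydrogenase. Sdhc, a membrane anchor, had a mean of 93.2 FPKM, Sdhb, the iron-sulfur subunit, 88.7, Sdha, the flavoprotein, 79.9 and Sdhd, the other anchor, 72.1. In complex III, Uqcrq had the highest mean at 508 FPKM, followed by the hinge protein gene Uqcrh at 182.1 and by Uqcr10 at 164.4. With the library apart left out, the median was 151.2 FPKM for Uqcrh and 160.1 for Uqcr10. The genes of the electron-carrying subunits Cyc1 (cytochrome c1) and Uqcrfs1 (the Rieske protein) had means of 77.7 and 57.6.

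In complex IV the leading genes were Cox8a (330 FPKM), Cox6b1 (309) and Cox4i1 (308), the forms found in most tissues. The forms known from other tissues were low or near 0. Cox4i2, a form known from lung, did not exceed 0.110 FPKM in any library, Cox6b2 and Cox7b2, known from testis, did not exceed 0.127 and 0.242, Cox8b, known from heart and muscle, was listed at 0 in 5 libraries, and Cox8c was listed at 0 in all 6. The heart and muscle forms Cox6a2 and Cox7a1 were the exceptions, at means of 44.3 and 3.80 FPKM. In complex V the highest means were those of Atp5e, the epsilon subunit, at 525 FPKM, the catalytic beta subunit gene Atp5b at 394, and the membrane subunit gene Atp5k at 339. With the library apart left out, the median was 373 FPKM for Atp5e and 391 for Atp5b. The alpha subunit gene Atp5a1 had 267 FPKM. The lowest, Atp5s (5.77) and Atp5sl (6.95), carry the name but are known as assembly-related factors rather than subunits. The gene of the inhibitor of ATP synthase, Atpif1, which the rule does not match, was at 149 to 196 FPKM.

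**Figure D1:**
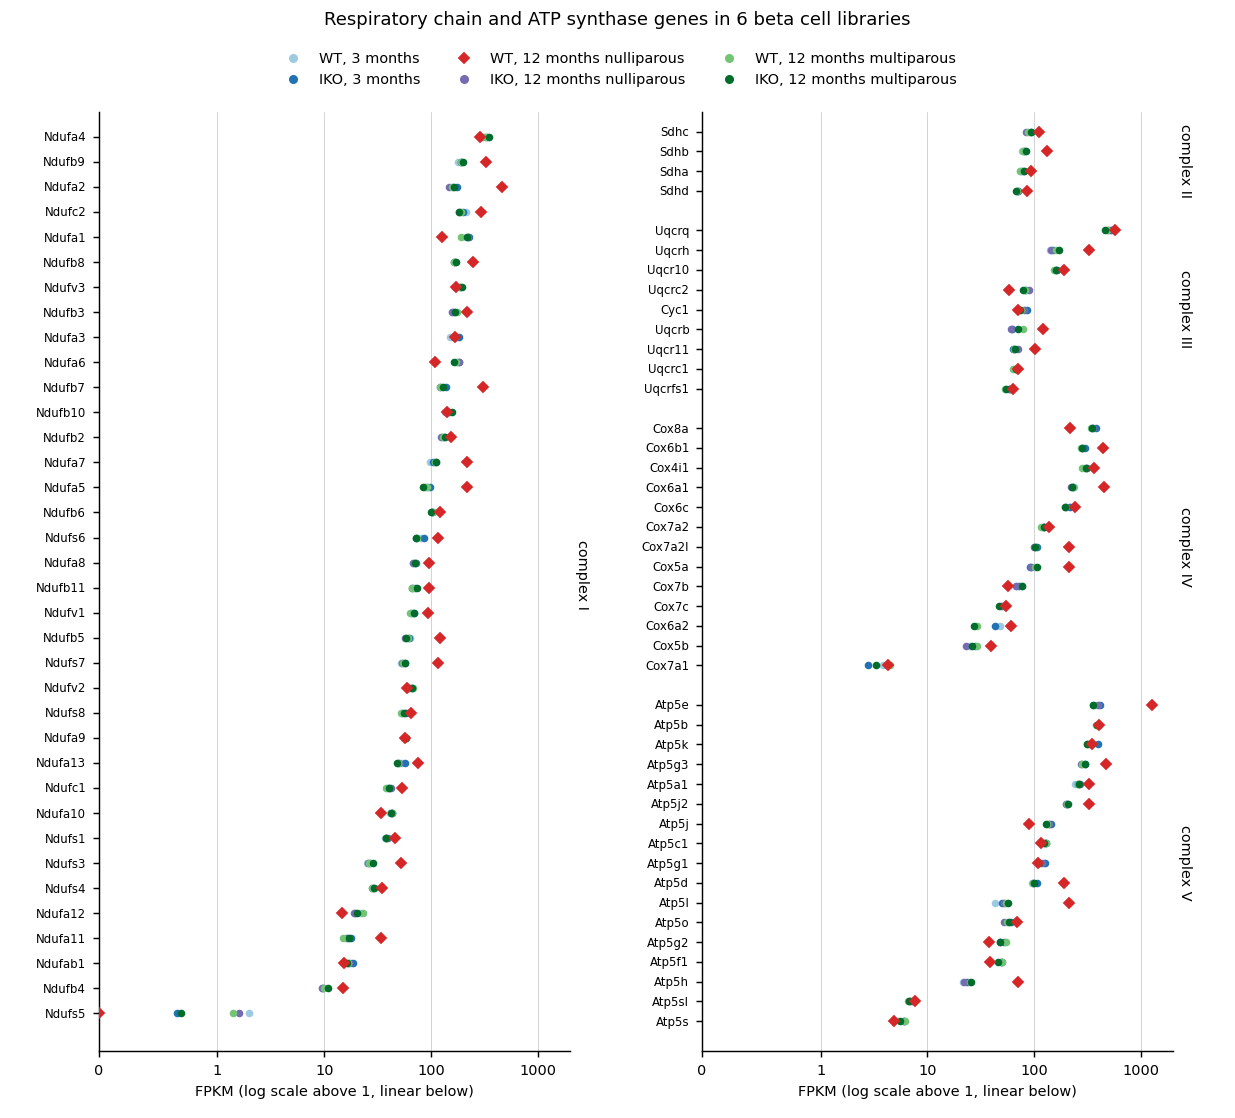
Level of 79 of the 80 members in the 6 libraries, by complex. The x axis is FPKM, on a log scale above 1 and linear below it; each point is 1 library and red diamonds mark the 12-month nulliparous WT library. The other 5 libraries mostly lie on top of each other, while the diamond lies to the right of all of them in 54 of the members drawn and to the left in 18.

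Promoter sequences are shown for 4 members to let the general and the tissue forms be compared. Sdhd and Cox6a1 are widely expressed genes whose windows hold letters of factors known to act on respiratory chain genes. Cox7a1 and Cox7a2 are the muscle form and the general form of 1 subunit. Each run is the 250 bases before the start of the gene, 5′ to 3′ on the gene's strand, from RefSeq on GRCm38.p6. Capitals mark matches to the NRF1 motif or the ETS motif.
Sdhd, chr9:50603850-50604099, minus strand: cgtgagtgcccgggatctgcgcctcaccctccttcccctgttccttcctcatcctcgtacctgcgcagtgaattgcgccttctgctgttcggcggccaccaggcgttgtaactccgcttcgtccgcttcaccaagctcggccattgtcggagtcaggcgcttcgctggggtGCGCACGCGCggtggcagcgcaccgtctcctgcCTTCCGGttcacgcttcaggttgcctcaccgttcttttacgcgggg
Cox6a1, chr5:115348959-115349208, minus strand: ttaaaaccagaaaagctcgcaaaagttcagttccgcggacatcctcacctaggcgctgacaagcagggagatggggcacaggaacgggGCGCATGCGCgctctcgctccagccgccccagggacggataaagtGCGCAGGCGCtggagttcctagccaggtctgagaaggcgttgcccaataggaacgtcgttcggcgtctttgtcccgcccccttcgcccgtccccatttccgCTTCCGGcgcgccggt
Cox7a2, chr9:79759854-79760103, minus strand: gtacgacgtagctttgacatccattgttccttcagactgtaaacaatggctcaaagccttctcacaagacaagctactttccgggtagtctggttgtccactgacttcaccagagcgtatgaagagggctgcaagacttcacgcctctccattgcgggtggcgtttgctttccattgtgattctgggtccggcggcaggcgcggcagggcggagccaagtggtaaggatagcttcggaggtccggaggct
Cox7a1, chr7:30183921-30184170, plus strand: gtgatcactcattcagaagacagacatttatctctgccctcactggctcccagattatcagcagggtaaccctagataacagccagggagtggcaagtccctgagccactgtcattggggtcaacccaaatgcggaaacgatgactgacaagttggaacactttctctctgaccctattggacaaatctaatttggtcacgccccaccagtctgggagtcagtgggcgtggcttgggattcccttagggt

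The Cox6a1 window holds 2 NRF1 matches and 1 ETS match, the Sdhd window 1 of each, and the Cox7a1 and Cox7a2 windows neither. Over the 67 members with a promoter entry, the NRF1 letters (GCGCA, then any base, then GCGC), searched on both strands like all motifs here, were found in 12, which is 17.9% of them, against 9.33% of the 8899 tested genes with an entry and 5.46% of all 17448 promoters. The ETS letters CCGGAAG were found in 11 members, 16.4%, against 15.3% of tested genes and 9.43% of all promoters. The YY1 letters AANATGGCG were found in 3 members, 4.48%, against 2.36% of tested genes and 1.38% of all promoters. The ERR letters TCAAGGTCA were found in 1 member, 1.49%, against 0.247% and 0.287%. By complex, NRF1 letters were in 6 of 33 windows of complex I, 2 of 3 of complex II, 0 of 5 of complex III, 1 of 10 of complex IV and 3 of 16 of complex V. A match describes letters in this window and is not a measured binding site.

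Outside the 12-month nulliparous WT library, members varied little. The ratio of the highest to the lowest of the other 5 libraries had a median of 1.13 over members, against 1.18 over all tested genes. It was under 1.2 in 69 of the 80 members (86.25%), against 57.6% of all tested genes, and over 1.5 in 3, against 11.2%. The 3 were Ndufs5 (3.03), Cox6a2 (2.14) and Cox7a1 (1.61). This was not particular to members: the ratio was under 1.2 in 88.2% of mitochondrial ribosomal proteins and 81.25% of citric acid cycle genes. It was so in 75.6% of assembly factors and 53.1% of cytosolic ribosomal proteins. Members are also more abundant than most tested genes, and the part of level in their steadiness was not tested. Among the steadiest members were Ndufb6 (1.04), Atp5j2 (1.04), Ndufb8 (1.05) and Cox6a1 (1.05), which were chosen after their values were seen. Atp5b, for example, had 391 and 405 FPKM in the 3-month pair (WT, then IKO), 402 and 397 in the older nulliparous pair and 382 and 391 in the multiparous pair.

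The 12-month nulliparous WT library lay above all other 5 libraries in 55 members (68.75%), against 32.4% of all tested genes, and below all 5 in 18 (22.5%), against 43.5% of all tested genes. Summed over the 80 members, it held 13548 FPKM, and the others 9459 to 10030. That is 1.40 times their mean, or 1.21 times as a share of the summed FPKM of all genes. By complex the sum was 1.36 times the mean of the other 5 in complex I, 1.33 times in complex II, 1.29 times in complex III, 1.32 times in complex IV and 1.58 times in complex V. Without the highest member of each complex the ratios were 1.41, 1.37, 1.38, 1.49 and 1.28.

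In complex II all 4 members were higher in this library, at 1.19 to 1.65 times the mean of the other 5, but in complexes I, III, IV and V some members were higher and others lower. Atp5l, a membrane subunit of ATP synthase, was at 211.6 FPKM in it and at 42.6 to 56.4 elsewhere. Atp5e was at 1257 FPKM against 354 to 417, and Atp5h, a stalk subunit, at 70.1 against 21.6 to 25.4. Yet 2 genes of the catalytic core hardly differed, Atp5b at 402 FPKM against 382 to 405 and Atp5c1 (the gamma subunit) at 116.3 against 122.9 to 129.8. The alpha subunit gene Atp5a1, also of the core, lay above the other 5, at 1.26 times their mean. In complex I, Ndufa2 was at 461 FPKM against 148 to 173.1 and Ndufb7 at 308 against 121.3 to 138.3, whereas Ndufa1 was at 126.2 against 189.3 to 226 and Ndufa6 at 109.0 against 165.6 to 181.8. In complex IV, Cox6a1 was at 448 FPKM against 223 to 235 and Cox8a at 215.3 against 336 to 378. The log2 ratio of this library to the mean of the other 5 had an SD of 0.59 over the members and 0.45 over all tested genes.

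Members have short transcripts, with a median of 681.5 bases against 2106 for all tested genes with a length, and in this library the distance from the other 5 went with transcript length over the whole table. Its median log2 distance was 0.12 for genes under 500 bases and -0.23 for genes of 4000 bases and over. Members of at least 500 and under 1000 bases had a median of 0.42 (49 genes), and all tested genes of that length 0.11 (1921 genes). A transcript of another gene that was at least 95% identical over at least 50% of the length was found for 7 members: 9 genes for Atp5l, 3 each for Atp5h and Uqcrb, and 1 each for Ndufs3, Ndufb11, Atp5k and Atp5o. Reads of these members could be split among copies, so their levels are uncertain. Their median log2 distance was 0.85, and that of the other 73 members 0.27. Of all tested genes, 5.12% had such a copy, against 8.75% of members, and their median was 0.083, against -0.065 for those without. The part that transcript length, depth, near-identical copies and other cell types have in the levels of this library was not tested.

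**Figure D2:**
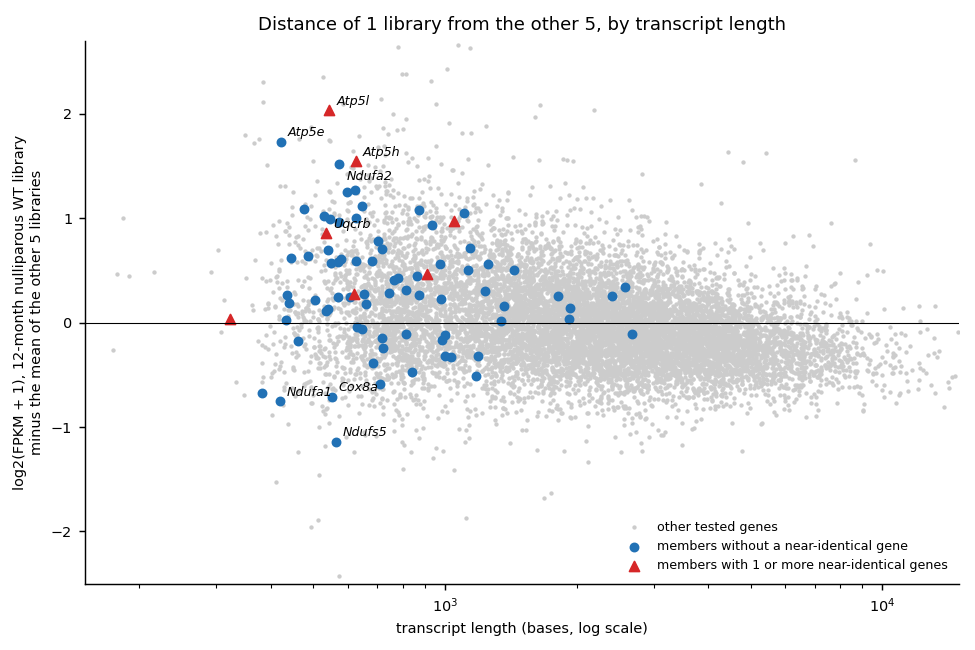
Distance of the 12-month nulliparous WT library from the mean of the other 5 libraries, in log2(FPKM + 1), against transcript length in bases on a log scale. Grey dots are other tested genes (39 lie outside the axes), blue dots are members without a near-identical gene and red triangles the 7 members with one. Distances spread more widely among short transcripts, and all 7 triangles lie above 0.

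Genotype was compared first within each stage, as the log2 ratio of FPKM + 1 of IKO to WT. At 3 months, 66 of the 80 members were higher in IKO, against 53.4% of all tested genes, with a small median log2 ratio of 0.062 (0.0067 over all tested genes). All 17 members of complex V and all 4 of complex II were higher, and the median was 0.068 in complex I, 0.045 in complex II, 0.031 in complex III, 0.048 in complex IV and 0.077 in complex V. These medians kept their sign under every other scaling and filter tried. The largest ratios were those of the complex I gene Ndufa3 (0.27), Atp5l (0.21) and Atp5d (0.18), the delta subunit. The lowest were those of Ndufs5 (-0.85), Cox7a1 (-0.35) and Ndufa12 (-0.16). At this stage Ndufa3 had 151.0 (WT) and 181.8 (IKO) FPKM, and it had 162.4 to 168.4 in the other 4 libraries. Of the 78 members with at least 5 FPKM in 1 of both libraries, 0 reached a 2-fold difference, which 0.0493% of all genes at that level reached upward and 0.0616% downward. Ndufs5, under that limit, had a ratio of 0.330.

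Between the 12-month nulliparous libraries, the pair that includes the library apart, 62 of the 80 members were lower in IKO, against 42.7% of all tested genes, and the median log2 ratio was -0.27 (0.072 over all tested genes). The medians were -0.36 in complex I, -0.34 in complex II, -0.22 in complex III, -0.21 in complex IV and -0.14 in complex V. The last of them became 0.012 when values were rescaled to the total without the 20 highest genes. That rescaling moved the median of all tested genes in this pair from 0.072 to 0.22. Relative to that median, the members lay at -0.34 on the deposited scale and -0.32 on the other, where their own median was -0.095. With the trend with transcript length and GC content removed, the members' median was -0.17, and those of complexes III, IV and V were -0.053, -0.089 and -0.044. At least 2-fold lower in IKO were 14 of the 78 members at 5 FPKM or more, against 3.23% of all genes, led by Atp5l (-2.00), Atp5e (-1.67) and Atp5h (-1.64). The highest ratios were those of Ndufs5 (1.37), Ndufa1 (0.82) and Ndufa6 (0.73).

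Between the multiparous libraries the ratios were again small, with 46 of the 80 members higher in IKO, against 44.4% of all tested genes, and a median of 0.024 (-0.016 over all tested genes), which was -0.0034 once the trend with transcript length and GC content was removed. Complex medians ran from -0.011 in complex IV to 0.083 in complex II. Those of complexes III, IV and V turned sign under at least 1 other scaling. Ndufa1 (0.20), Ndufa11 (0.18) and Ndufb11 (0.16) had the highest ratios, and Ndufs5 (-0.51), Cox7a1 (-0.34) and Ndufa12 (-0.18) the lowest. Of the 78 members at 5 FPKM or more, 0 differed 2-fold, which 0.098% of all genes did upward and 0.123% downward, while Ndufs5, under that limit, had a ratio of 0.491.

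The pairs at 3 months and after pregnancies share no library, and in both of them 41 of the 80 members were higher in IKO (51.25%), against 29.7% of all tested genes, and 9 were lower (11.25%), against 31.8%. Taken alone, 66 members were higher at 3 months (53.4% of all tested genes) and 46 in the multiparous pair (44.4%). Whether the pairs agree beyond these single counts was not tested. Counting all 3 stages, IKO was above WT in 4 members, against 13.4% of all tested genes, namely Cox8a, Ndufa1, Cox7b and Ndufa4. It was below WT at all 3 stages in 7, against 9.80%, namely Ndufb6, Ndufb5, Cox7a1, Uqcrb, Ndufc2, Cox6a1 and Cox6a2. The steps are small in most of these: Ndufa4 had 318 FPKM in the youngest WT library and 332 in its IKO partner, 286 and 299.7 in the older nulliparous pair, and 319.7 and 346 in the multiparous pair. The groups of 3 libraries overlap for Ndufa4.

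The limma model, which fits genotype and stage together over the 6 libraries and 11131 genes, called 0 members for genotype at an adjusted p of 0.05, and 0 genes in all (0%). At an unadjusted p under 0.05 it had 180 genes and 0 members. The members' median log2 difference was -0.088, with 24 of the 80 higher in IKO, against 55.7% of all tested genes. Without the 12-month nulliparous WT library the sign turned, to a median of 0.047 with 62 of the 80 higher, against 48.0% of all tested genes. Then 0 members and 2 genes (0.018%) were called, with 7 members and 1281 genes at an unadjusted p under 0.05. By complex the median difference with all 6 libraries was -0.093, -0.097, -0.038, -0.098 and -0.0096 for complexes I to V, and without that library 0.048, 0.064, 0.016, 0.017 and 0.058. For Cox7a1, the member with the lowest p in the fit of all 6, the difference was -0.24 (SE 0.11, limma adjusted p = 0.923), and -0.34 (SE 0.059, limma adjusted p = 0.291) without that library.

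**Figure D3:**
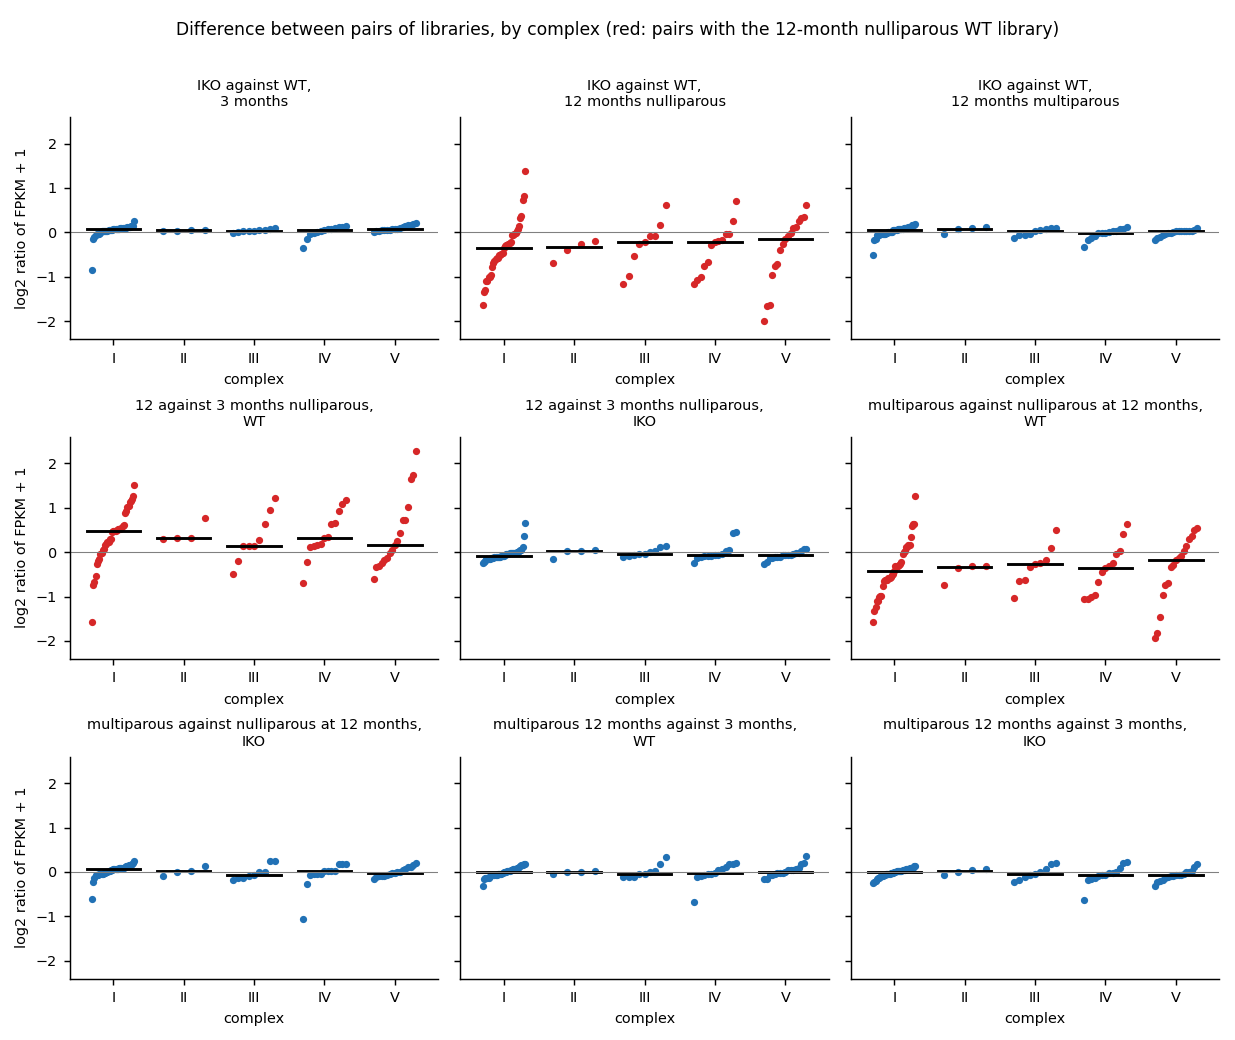
Log2 ratio of FPKM + 1 for each member in 9 pairs of libraries, by complex. Each point is 1 gene, the black bar is the median of the complex, and red panels are the pairs that include the 12-month nulliparous WT library. Points lie close to 0 in the blue panels and spread over more than 2 log2 units in the red ones.

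Age was compared as 12 against 3 months in nulliparous mice. In WT, 60 of the 80 members were higher at 12 months, against 45% of all tested genes, with a median log2 ratio of 0.31 (-0.049 over all tested genes). In IKO, 61 of the 80 were lower, against 43.8% of all tested genes, with a median of -0.061 (0.020). The WT medians were 0.48 in complex I, 0.31 in complex II, 0.15 in complex III, 0.32 in complex IV and 0.15 in complex V. Those of complexes III and V became -0.052 and -0.026 under the scaling without the 20 highest genes, which moved the median of all genes to -0.22 and made that of members 0.11. With the length and GC trend removed, the members' WT median was 0.18, that of complex IV 0.093 and those of complexes III and V 0.055 and 0.062. The IKO medians were -0.080, 0.018, -0.032, -0.069 and -0.070, and those of complexes II and III turned sign under another scaling. The IKO median of all members was -0.025 with the trend removed. The members at least 2-fold higher in WT numbered 14, against 3.51% of all genes, with Atp5l at 2.29, Atp5e at 1.75 and Atp5h at 1.65. The lowest WT ratios were those of Ndufs5 (-1.58), Ndufa1 (-0.74) and Cox8a (-0.70).

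In IKO 0 of the 78 members at 5 FPKM or more differed 2-fold with age, which 0.146% of all genes did upward and 0.110% downward, while Ndufs5, under that limit, had a ratio of 2.42. The highest IKO ratios were those of Ndufs5 (0.65), Cox7a1 (0.46) and Cox6a2 (0.44), and the lowest those of Atp5k (-0.26), Cox5b (-0.25) and Ndufs6 (-0.24).

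Comparing 12 months multiparous against 3 months in each genotype avoids the library apart, but age and parity change together there and cannot be told apart. The members' median log2 ratio was -0.0073 in WT, with 42 of the 80 lower, against 43.4% of all tested genes, and -0.034 in IKO, with 47 lower, against 51.6%. For age, limma called 0 members and 3 genes (0.027%) with all 6 libraries (2 members and 482 genes at an unadjusted p under 0.05). The median difference of members was 0.16, with 57 of the 80 higher, against 47.6% of all tested genes. Without the 12-month nulliparous WT library, the median was -0.051, with 24 higher, against 56.8%, and 0 members were called of 43 genes called in all (0.386%; 10 members and 2058 genes at an unadjusted p under 0.05).

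Parity was compared at 12 months. In WT, 58 of the 80 members were lower in multiparous mice, against 44.3% of all tested genes, with a median log2 ratio of -0.31 (0.061 over all tested genes). In IKO, 43 of the 80 were higher, against 43.9%, with a median of 0.011 (-0.023). That median was -0.0011 under the scaling without the 20 highest genes and -0.017 with the length and GC trend removed. The WT medians for complexes I to V were -0.43, -0.33, -0.27, -0.37 and -0.18, and the IKO medians 0.056, 0.016, -0.066, 0.012 and -0.023. The IKO medians of complexes II, IV and V turned sign under at least 1 other scaling. In WT the members' median was -0.14 under the scaling without the 20 highest genes and -0.22 with the length and GC trend removed, and that of complex V was -0.033 and -0.079. At least 2-fold lower were 12 members in WT, against 3.59% of all genes, and 1 in IKO, Cox6a2, against 0.280% of all genes. In IKO the highest ratios were those of Uqcrb (0.24), Uqcrh (0.24) and Ndufv3 (0.24), and after Cox6a2 (-1.07) the lowest were those of Ndufs5 (-0.62) and Cox7a1 (-0.26). In WT the highest were Ndufs5 (1.27), Cox8a (0.64) and Ndufa6 (0.64), and the lowest Atp5l (-1.93), Atp5e (-1.83) and Ndufa2 (-1.56).

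Cox6a2, the heart and muscle form of a regulatory subunit of complex IV, was the member with the lowest p for parity in limma. The 3-month pair (WT, then IKO) had 47.4 and 43.0 FPKM, the older nulliparous pair 59.97 and 58.7, and the multiparous pair 29.2 and 27.5. Both multiparous libraries lie below all 4 nulliparous ones, and within each stage both genotypes are close. The gene lies at chr7:128205435-128206366 on mm10 and no near-identical transcript of another gene was found. In limma with all 6 libraries its parity difference was -1.04 (SE 0.11), 44th from the lowest of 11131 genes and 16th by p, and did not pass (adjusted p = 0.197). In that fit 0 members and 3 genes (0.027%) were called for parity, and 2 members and 824 genes had an unadjusted p under 0.05. Without the 12-month nulliparous WT library the difference was -1.08 (SE 0.059) and passed (adjusted p = 0.00839), the only member among 297 genes called (2.67%). The 12-month nulliparous stage then rests on its IKO library. Leaving out either 3-month library also gave a call for Cox6a2. In both of these fits the parity difference and its spread come from the same 12-month libraries, so they are not separate checks. Leaving out either multiparous library, which leaves 1 library in that stage, gave no call for Cox6a2. Over the single libraries left out, the difference lay between -1.08 and -0.9996.

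Left out alone, the 12-month nulliparous IKO library changed the counts most. The 12-month nulliparous stage then rests on the library apart, and 63 of the 80 members were called for age and 63 for parity, Cox6a2 among them (parity adjusted p = 0.000813 in limma), while 54.3% and 56.8% of all genes were called. When instead the trend with length and GC content was removed and the 12-month nulliparous WT library left out together, 1 member, Cox6a2, was called for age (0.46, SE 0.060, limma adjusted p = 0.0356, 1.11% of all genes called). For parity 2 members were called there, Cox6a2 (-1.11, adjusted p = 0.00185) and Ndufs5 (-0.74, adjusted p = 0.0453), whose estimate is uncertain, with 5.6% of all genes called. Over all members, limma's median parity difference was -0.18 with 20 of the 80 higher, against 52.8% of all tested genes, and 0.023 with 45 higher, against 45.1%, without the library apart.

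Outside the library apart, the lower level of Cox6a2 in multiparous libraries was not shared by its general form Cox6a1. Cox6a1 had 235 and 232 FPKM in the 3-month pair, 448 and 223 in the older nulliparous pair and 229 and 227 in the multiparous pair, WT before IKO. The log2 ratio of multiparous to nulliparous at 12 months was -0.96 for Cox6a1 and -1.01 for Cox6a2 in WT, and 0.028 and -1.07 in IKO. Within a library, Cox6a2 made up 16.8% and 15.6% of the summed level of both genes in the 3-month pair, 11.8% and 20.8% in the older nulliparous pair, and 11.3% and 10.8% in the multiparous pair. The share in the 12-month nulliparous WT library, where Cox6a1 is high, is close to the multiparous ones. Of the beta cell markers, Mafa, a transcription factor of mature beta cells, was also lower in both multiparous libraries. The levels were 79.1 and 70.8 FPKM in the 3-month pair, 102.3 and 88.5 in the older nulliparous pair and 46.7 and 50.3 in the multiparous pair. The other beta cell markers with values are given only as a sum, and Mafa was named after its values were seen. Its parity difference in limma was -0.96 (SE 0.13, adjusted p = 0.334), and -0.87 (SE 0.097, adjusted p = 0.0327) without the library apart. The summed level of the 10 beta cell markers, 1297 and 1340 FPKM in the multiparous libraries, lay within the nulliparous range. That of the 9 acinar markers was 4.10 (WT) and 3.24 (IKO) FPKM in the multiparous pair, below all 4 nulliparous libraries (6.17 to 73.96). The part of these markers' cells in the level of Cox6a2 was not tested.

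Cox7a1, the heart and muscle form of another complex IV subunit, was near the bottom of the list. WT and IKO had 3.79 and 2.76 FPKM in the 3-month pair, 4.31 and 4.17 in the older nulliparous pair, and 4.44 and 3.31 in the multiparous pair. IKO lies below WT at each stage, but the highest IKO value is above the lowest WT value, so the groups overlap. It held 2.18% to 3.69% of the summed level of Cox7a1 and the general form Cox7a2. Cox7a2 itself stayed between 115.7 and 136.9 FPKM. Cox7a2l, which is known to help join complexes III and IV, was at 211.3 FPKM in the 12-month nulliparous WT library and at 98.3 to 106.5 in the others.

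**Figure D4:**
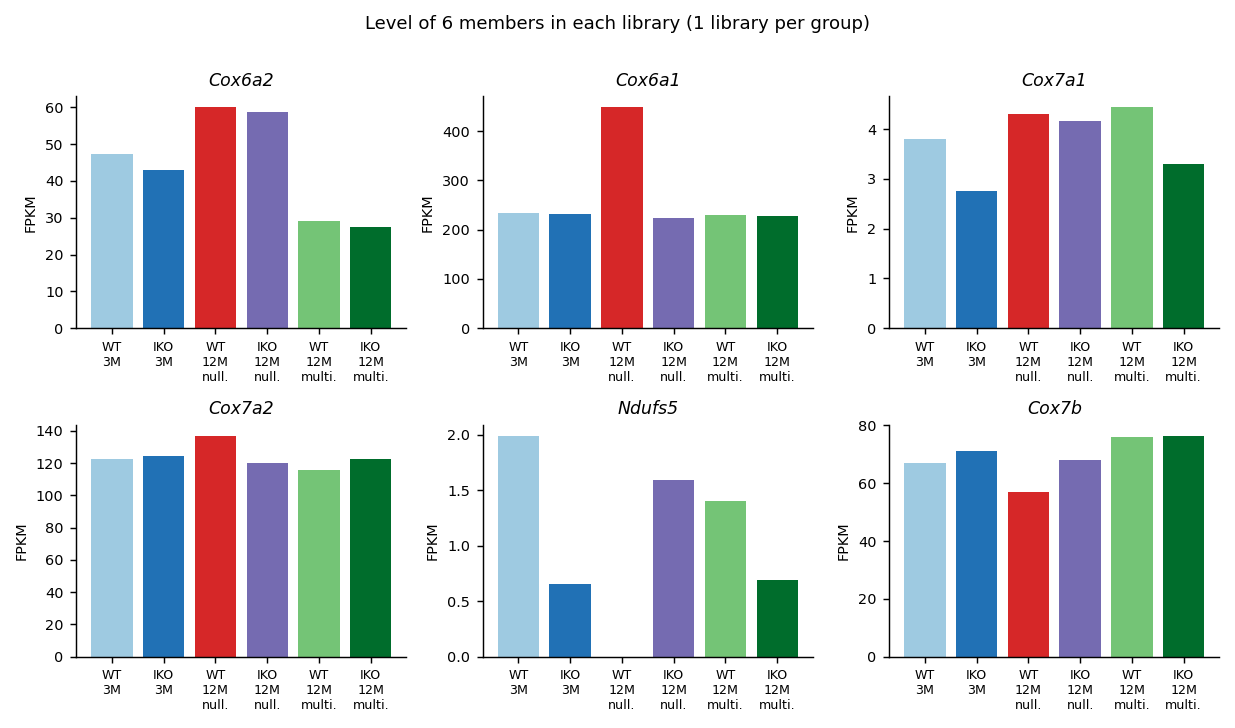
FPKM of 6 members in each of the 6 libraries, as bars from 0 with 1 library per group and no error bars. Cox6a2 is lower in both multiparous libraries than in the 4 nulliparous ones, Cox6a1 is high in the 12-month nulliparous WT library alone, Ndufs5 is near 0 there, and Cox7b is highest in the multiparous libraries.

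The c subunit of ATP synthase is made from 3 genes that give the same mature protein. Atp5g3 was the main source, with 62.1% to 65.3% of their summed level in 5 libraries and 76.0% in the 12-month nulliparous WT library. Atp5g1 gave 24.2% to 27.3% in the 5 and 17.7% in that library, and Atp5g2 10.5% to 12.2% and 6.22%. Ndufa4l2 never exceeded 0.377% of its sum with Ndufa4.

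Few members besides Cox6a2 had both multiparous libraries outside the range of the nulliparous ones. Both lay below all 4 in 8 members, against 9.22% of all tested genes, namely Atp5b, Cox6c, Atp5k, Uqcrfs1, Ndufa13, Cox6a2, Atp5e and Uqcrq. Both lay above all 4 in 3, against 11.9%, namely Ndufv3, Cox7b and Ndufv2. Cox7b, for example, had 66.9 and 71.3 FPKM in the 3-month pair, 57.0 and 67.9 in the older nulliparous pair, and 76.0 and 76.4 in the multiparous pair. In limma its parity difference was 0.29 (SE 0.12, adjusted p = 0.646), and 0.19 (SE 0.062, adjusted p = 0.176) without the library apart.

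Other mitochondrial genes were taken from lists. In the fit of all 6 libraries, limma called 0 genes for genotype, age or parity among 41 measured assembly factors of the complexes, 12 electron carriers and transporters, 16 citric acid cycle genes, 12 regulators of mitochondrial genes, 9 genes of supercomplexes and cristae, 76 mitochondrial ribosomal proteins and 81 cytosolic ribosomal proteins. At 3 months the assembly factors had a median log2 ratio of IKO to WT of 0.015 (25 higher, 16 lower), the citric acid cycle genes 0.024 (11 and 5), the regulators -0.032 (3 and 9) and the mitochondrial ribosomal proteins 0.039 (58 and 18). Between the 12-month nulliparous libraries the medians were -0.15, 0.19, -0.032 and -0.26. The citric acid cycle genes thus lay on the other side of 0 from the respiratory chain there, with 12 of 16 higher in IKO. Median transcript lengths were 1468 bases for the assembly factors, 2054 for the citric acid cycle genes, 1980 for the regulators and 1038 for the mitochondrial ribosomal proteins. The part of length in these medians was not tested.

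The cytosolic ribosomal proteins, with a median length of 711.5 bases, had a median log2 ratio of -0.66 between the 12-month nulliparous libraries. The library apart lay above the other 5 in 68.4% of mitochondrial ribosomal proteins, 64.2% of cytosolic ones, 61.0% of assembly factors, 50% of regulators and 18.75% of citric acid cycle genes. Without it, limma called Gpd2, the mitochondrial glycerol-3-phosphate dehydrogenase that feeds electrons to the chain, as lower with parity (-0.70, SE 0.090, adjusted p = 0.0418). Gpd2 had 11.9 and 12.9 FPKM in the 3-month pair, 14.4 and 18.0 in the older nulliparous pair and 11.2 and 10.2 in the multiparous pair. That fit also called Rpl35a and Rpl36 as higher with parity, Rps2 as lower with parity and Rpl29 as lower with age. Its 12-month nulliparous stage rests on the IKO library, where Rpl36 had 26.5 FPKM (multiparous 41.0) and Rpl35a 50.1 (multiparous 71.8). In WT at 12 months both were lower in the multiparous library, Rpl36 at 28.5 against 142.4 FPKM and Rpl35a at 51.1 against 54.6. Rps2 and Rpl29 had the called direction in both genotypes. These genes were named after their values were seen.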

How the data were processed

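RNA of sorted beta cells was measured in 6 libraries, 1 per group. Per the labels' protocols, the libraries were directional, from poly-A RNA, with paired reads of 100 bases. The submitters' processing notes name mm10 and the tools TopHat, Cufflinks and Cuffdiff, whose versions are not given in the sources used here. The authors deposited FPKM values, 1 column per library. Whether strand was used in assigning fragments is not given. Deposited starts count from 0 (1 was added). Symbols at more than 1 locus (260) were left out. Counts were not used here, so counting error is unknown; relative depth was read from the step size of low values (0.767 to 1.02).

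Ratios used log2(FPKM + 1), which understates the change of low genes. A 2-fold count needed 5 FPKM in 1 of both libraries and no entry of 0. limma 3.58.1 (R 4.3.3) was fitted with trend and additive genotype and stage to the 11131 genes that passed the filter (mean FPKM of 1 or more), with Benjamini-Hochberg adjustment over all of them and 2 residual degrees of freedom (1 where a library was left out). Its p-values rest on the spread of these libraries around the additive fit, so an effect of genotype that varies with stage enters the error. The fit was tested on simulated data with the same spread for every gene and no deviating library, unlike these data. Transcript lengths and near-identical transcripts came from GENCODE M21.

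The members and lists were chosen with earlier results of these data known. Named with values were the 3 highest members of each complex, the 3 highest and 3 lowest ratios of each pair, the 3 lowest p of each contrast, tissue forms, and core subunits; others are named where a count of few members needed it. Alternatives were other pseudocounts (0.1, 5), filters (none, 10 FPKM), rescaling by median ratio or without the 20 highest genes, removal of the trend with length and GC content, and leaving out each library. The multiparous against 3-month pairs, and leaving out the 12-month nulliparous WT library together with the trend, were added after seeing the data. The values of 1 member are not reported here on its own; it is counted in the totals.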

Additional observations from a re-analysis of the deposited data

Results flagged for a closer look

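The members' median log2 ratio of IKO to WT was 0.062 at 3 months and -0.27 between the 12-month nulliparous libraries, opposite in sign. The median ratio of 12 to 3 months was 0.31 in WT and -0.061 in IKO. The median ratio of multiparous to nulliparous at 12 months was -0.31 in WT and 0.011 in IKO. Each of these differences between stages or genotypes was not tested, since each group held 1 library, and each involves the 12-month nulliparous WT library on 1 side.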

How the results depend on the processing

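All medians by complex moved by less than the typical log2 ratio of a gene in the same pair under every setting, though small ones changed sign, including those named above. This limit is wide in the pairs with the library apart, where the median absolute log2 ratio of all tested genes was 0.27 to 0.29. A complex median there could lose most of its size within it: that of complex IV for age in WT went from 0.32 to 0.093 with the length and GC trend removed. Members at least 2-fold different between the 12-month nulliparous libraries numbered 6 after rescaling without the 20 highest genes and 8 with the length and GC trend removed; for age in WT 7 and 7, for parity in WT 6 and 5. For parity in IKO the count was 0 with a pseudocount of 5. Genes called by limma for genotype numbered 1 with a pseudocount of 0.1, for age 1 with a mean of at least 10 FPKM and 0 without genes listed at 0. For parity they numbered 0 with no filter, with 10 FPKM or without genes listed at 0, 1 without the 20 highest genes and 5 with the trend removed. With the trend removed and the 12-month nulliparous WT library left out, 4, 122 and 618 genes were called for genotype, age and parity, and 0, 1 and 2 members, with median differences of 0.024, -0.016 and -0.013. Leaving out each library in turn gave 2 to 9 genes for genotype, 17 to 6039 for age and 20 to 6319 for parity, and 0, 0 to 63 and 0 to 63 members. The median difference ranged from -0.14 to 0.047 for genotype, -0.051 to 0.30 for age and -0.33 to 0.023 for parity, with the sign turned without the 12-month nulliparous WT library. The additive fit compares genotype within stages; beyond that, no paired analysis was possible because each group held 1 library, with no replicate numbers to pair. The causes were not tested. FPKM values give no counting error, so low members such as Ndufs5 and Cox7a1 are least certain.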
